A study of Mus musculus with 6 samples.

Results

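Densely clustered cytosines were taken as the positions of the deposited methylation table with 10 or more other table positions on the same chromosome within 100 bases of their start. Of rows 1 to 390208, 112375 positions (28.8%) met this rule, in a table of 813850 rows. A value in all 6 libraries was present at 90882 of the 112375 (80.9%), and levels were compared between groups at these unless stated otherwise. The rule counts neighbours and does not read a position's own level. A position is a row only where at least 1 library has a value, and no value from 1 to 39 occurs in these rows. A counted neighbour is thus at 40% or more in at least 1 library, so the count is not independent of the level. In the rows after 390208 the libraries did not line up. There, 8 of the 15 library pairs had a Pearson r under 0.5 across positions, the lowest being -0.00588. Among dense positions of the rows used, the 15 pairs lay between 0.570 and 0.737.

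The libraries came from mouse intestinal organoids with the genotype Apc Min, a truncated form of Apc, an inhibitor of Wnt signalling, labelled as primary cells and kept in organoid medium that was low in glutamine. Controls made up 3 libraries, and the other 3 came from organoids given DM-aKG, an agent named after α-ketoglutarate, the subject of the series title. All 6 share the Apc Min genotype and the low glutamine, so no comparison with other genotypes or media can be made from them. The labels give neither dose nor duration nor the animals of origin, and the p-values measure the spread between these 6 libraries.

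In mammals, DNA methylation sits mostly on the cytosine of CpG dinucleotides, which both strands carry, and the maintenance machinery copies it from the old strand to the new one. CpG-dense stretches at the starts of active genes usually lack methylation, whereas gene bodies and DNA between genes usually have it. Imprinted control regions carry it on one parental copy, and the promoters of many germline genes carry it in somatic cells. α-Ketoglutarate is a co-substrate of the TET enzymes, which oxidise 5-methylcytosine. Reduced representation bisulfite sequencing reads DNA fragments ending at a restriction site, usually CCGG, so the measured cytosines come in clusters.

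A value is the percent of methylation at one position in one library. No value from 1 to 39 occurs in these rows, so a 0 can stand for a low level or for a missing call, and zeros were left out. The levels therefore speak for positions at 40% or more in every library. The table has no coverage, so the read depth behind a value is unknown. Control replicate 1 stood apart from the other libraries, with the lowest mean level and the fewest valued positions, and results are given without it where it moves them.

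The sequences of 5 promoter windows show what dense positions look like at the base level. They are RefSeq windows of the build GRCm38.p6, from 250 bases before to 50 bases after the gene start, printed 5′ to 3′ on the strand of the gene. Capitals mark the bases that are dense table positions. A capital C is a measured cytosine of the printed strand, and a capital G marks the measured cytosine opposite it. Mcts2 and Igf2r, both imprinted, had the lowest levels among windows with at least 10 dense positions valued in all 6 libraries, the germline genes Boll and Ddx4 had the most such positions, and the germline gene Dazl had the highest level. Their coordinates are chr2:152686898-152687197 (plus strand) for Mcts2, chr17:12769657-12769956 (minus) for Igf2r, chr1:55362679-55362978 (minus) for Boll, chr13:112652261-112652560 (minus) for Ddx4 and chr17:50293571-50293870 (minus) for Dazl.
Mcts2: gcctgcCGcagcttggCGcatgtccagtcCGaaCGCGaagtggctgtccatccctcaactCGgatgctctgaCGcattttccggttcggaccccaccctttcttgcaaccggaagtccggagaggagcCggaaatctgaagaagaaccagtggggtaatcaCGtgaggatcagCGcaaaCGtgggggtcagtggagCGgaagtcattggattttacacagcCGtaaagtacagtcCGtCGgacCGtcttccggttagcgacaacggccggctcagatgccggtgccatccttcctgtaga
Igf2r: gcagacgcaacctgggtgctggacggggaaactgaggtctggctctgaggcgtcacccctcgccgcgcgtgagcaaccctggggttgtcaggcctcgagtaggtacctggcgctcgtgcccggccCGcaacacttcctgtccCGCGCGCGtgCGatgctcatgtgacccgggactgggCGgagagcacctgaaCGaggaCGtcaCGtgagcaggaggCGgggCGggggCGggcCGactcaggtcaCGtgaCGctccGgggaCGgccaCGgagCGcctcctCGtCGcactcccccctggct
Boll: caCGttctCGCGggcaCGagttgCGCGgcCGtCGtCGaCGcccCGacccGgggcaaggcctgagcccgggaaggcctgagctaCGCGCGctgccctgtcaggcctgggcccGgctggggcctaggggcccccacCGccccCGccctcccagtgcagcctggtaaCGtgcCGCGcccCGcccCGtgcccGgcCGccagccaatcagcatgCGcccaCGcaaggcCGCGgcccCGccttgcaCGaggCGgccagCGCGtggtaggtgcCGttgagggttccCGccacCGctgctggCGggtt
Ddx4: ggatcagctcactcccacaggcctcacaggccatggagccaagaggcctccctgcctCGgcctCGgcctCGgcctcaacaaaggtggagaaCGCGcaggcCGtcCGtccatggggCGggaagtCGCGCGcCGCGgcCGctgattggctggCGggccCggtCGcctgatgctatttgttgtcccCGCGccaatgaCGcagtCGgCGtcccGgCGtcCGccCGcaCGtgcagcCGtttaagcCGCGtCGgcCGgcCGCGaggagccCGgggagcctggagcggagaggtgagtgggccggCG
Dazl: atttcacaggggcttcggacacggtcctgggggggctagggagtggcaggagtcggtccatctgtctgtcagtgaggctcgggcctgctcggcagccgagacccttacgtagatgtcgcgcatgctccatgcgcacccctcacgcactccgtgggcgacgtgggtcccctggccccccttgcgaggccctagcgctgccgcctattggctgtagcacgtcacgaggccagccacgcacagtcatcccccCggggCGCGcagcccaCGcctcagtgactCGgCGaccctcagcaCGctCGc

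The windows hold 25 CpGs in Mcts2, 34 in Igf2r, 39 in Boll, 38 in Ddx4 and 28 in Dazl. Dense positions number 31, 43, 73, 70 and 15 in the same order, most of them as pairs on the C and the G of a CpG. Across the 4177 table positions that fall in any promoter window, 99.9% lie on a C or G of a CpG when the start column is counted from 1, against 50.04% and 55.4% when it is moved by 1 base either way. Positions are therefore given from 1.

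Dense positions were highly methylated and were higher than the other positions in every library. Their mean level was 88.4%, 89.4% and 89.5% in control replicates 1 to 3 and 89.9%, 89.9% and 90.2% in the DM-aKG replicates. The other 181445 positions valued in all 6 libraries were at 85.8%, 87.1% and 87.2% in the controls and at 87.6%, 87.8% and 88.2% with DM-aKG. Dense positions thus lay above the others by 2.02 to 2.61 points within a library, with a mean of 2.27 ± 0.197 (SD, n = 6), in 6 of 6 libraries. The exact two-sided sign-flip permutation p was 0.03125, the smallest 6 libraries allow, and it was 0.03125 after adjustment over 10 such differences. The libraries were read at the same positions, so this p measures repetition across libraries and not the spread between positions. With any 1 library left out the mean stayed between 2.20 and 2.32, while the smallest p that 5 libraries allow is 0.0625. The neighbours that the rule counts were at 40% or more in at least 1 library, so the margin is not independent of the rule. How much the rule adds to it was not tested.

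The level did not climb steadily with density. The control level was 89.2% ± 0.672 (SD, n = 3) with 10 to 14 other rows, 89.1% ± 0.646 with 15 to 19 and 89.3% ± 0.375 with 20 to 29. Only the 3894 positions with 30 or more other rows around them were lower, at 86.9% ± 0.185. Within libraries the most crowded positions differed from those with 10 to 14 other rows by -2.75 to -1.58 points (mean -2.31 ± 0.436, SD, n = 6; 6 of 6 libraries; exact sign-flip permutation p = 0.03125). Crowded positions share clusters, and all libraries share the positions, so this p does not measure the spread between clusters. How far single clusters make up the difference was not tested. Below the rule's threshold, the control level was 85.7% at 0 to 4 other rows and 87.6% at 5 to 9. At the threshold itself, the 12847 positions with exactly 9 other rows were at 88.0% in the controls and 88.9% with DM-aKG, and the 16327 with exactly 10 were at 89.3% and 90.3%.

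**Figure D1:**
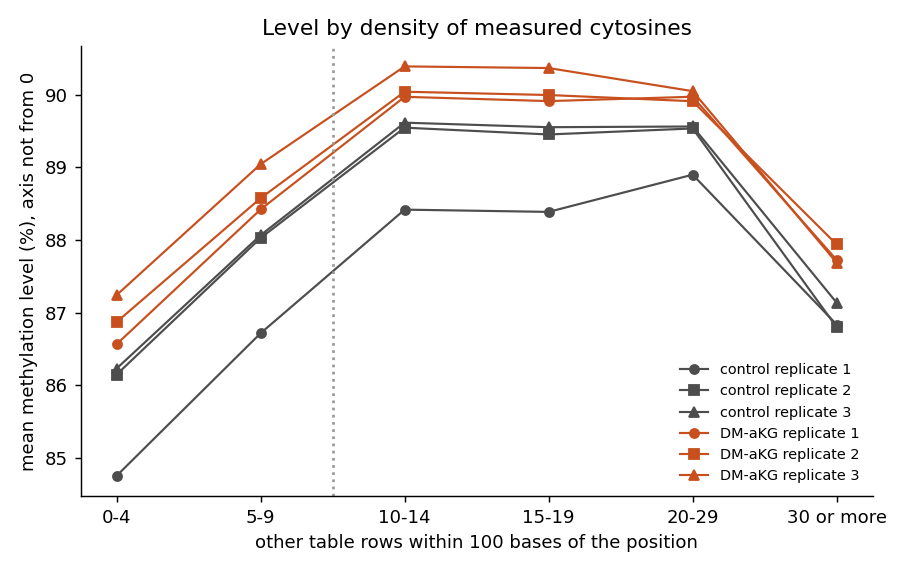
Mean level of methylation per library (%, vertical axis cut above 0) against the number of other table rows within 100 bases (horizontal axis); each line is 1 library and the dotted line is the rule's threshold. All 6 lines rise to 10 to 14 other rows and end lower at 30 or more, and the 3 DM-aKG lines lie above the 3 control lines throughout.

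Levels among dense positions were also narrower than elsewhere. Their SD across positions was 12.3 to 14.3 points in the 6 libraries, and it differed from that of the other positions by -1.14 to -0.425 points in 6 of 6 (exact sign-flip permutation p = 0.03125). Fully methylated values, at 100%, made up 28.6% ± 3.18 of dense positions in the controls (SD, n = 3) and 30.5% ± 3.23 with DM-aKG, and 5.09 to 9.01 percentage points less of the others. Values under 80% made up 21.3%, 18.1% and 18.5% of dense positions in the controls and 17.7%, 17.0% and 16.5% with DM-aKG. Of the 90882 dense positions, 3973 (4.37%) were at 100% in all 6 libraries, against 2.81% of the others. The limit that the rule sets on the margin applies to these contrasts of dense and other positions too.

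Neighbouring dense cytosines resembled each other most when they were 1 base apart, which in a CpG means the cytosines of the opposite strands. A table row 1 base away was present for 90.3% of dense and 63.0% of other positions. Over 41246 pairs of dense positions 1 base apart, the Pearson r of the levels within a library was 0.563 to 0.666. It was 0.379 to 0.414 at 2 to 9 bases, 0.294 to 0.326 at 10 to 29, 0.236 to 0.269 at 30 to 59 and 0.200 to 0.228 at 60 to 100 bases. These are correlations across pairs of positions that share a library and often a fragment, given as a description. With the 6 libraries averaged, the median absolute difference of a pair was 2.17 points at 1 base and 5.50 at 60 to 100 bases.

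**Figure D2:**
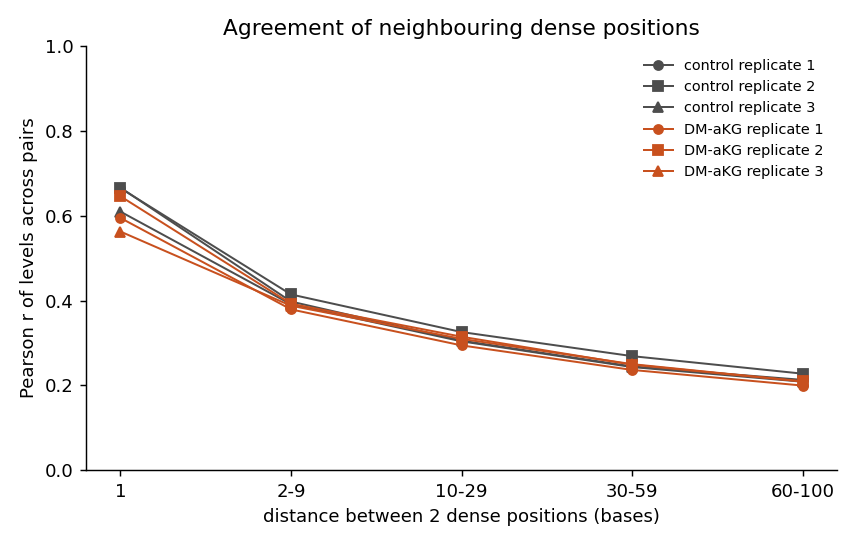
Pearson r of the methylation level across pairs of dense positions (vertical axis) by the distance between them in bases (horizontal axis), 1 line per library. In every library r is highest at 1 base (0.563 to 0.666) and lowest at 60 to 100 bases (0.200 to 0.228), and control and DM-aKG lines run together beyond 1 base.

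Gene bodies held most dense positions. Of the 112375, 69.5% lay inside a gene span more than 1000 bases from either end, 15.01% within 1000 bases of a gene end, 13.8% outside gene spans and 1.71% in a promoter window. The other positions divided as 69.7%, 10.8%, 18.7% and 0.827%. The control level of dense positions was 89.8% ± 0.593 (SD, n = 3) inside genes, 87.3% ± 0.234 near gene ends, 87.9% ± 1.07 outside genes and 84.8% ± 0.153 in promoter windows. In each of these 4 contexts dense positions were higher than the others in 6 of 6 libraries, by a mean of 2.41, 1.67, 2.49 and 1.19 points (exact sign-flip permutation p = 0.03125 each). All 6 libraries were read at the same positions, so these p-values speak for repetition across libraries and not for other positions. The limit that the rule sets on the margin applies here too.

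Runs of positions no more than 100 bases apart were joined into regions, of which 8049 held dense positions. A region had a median of 12 dense positions over 97 bases, and 7045 regions (87.5%) lay within 1000 bases of a gene. At least 3 positions valued in all 6 libraries were present in 6773 regions, whose median level was 91.1% (quartiles 85.7% and 94.6%, range 48.7% to 100%), against 89.3% over 24301 other regions. Under 70% were 236 dense regions (3.48%) and 4.91% of the others, and 1525 dense regions (22.5%) were at 95% or more. Positions within a region differed by a median SD of 7.31 points and libraries by 2.14. The 85 regions lying mainly in promoter windows were lower, with a median of 84.7% and 15.3% of them under 70%.

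**Figure D3:**
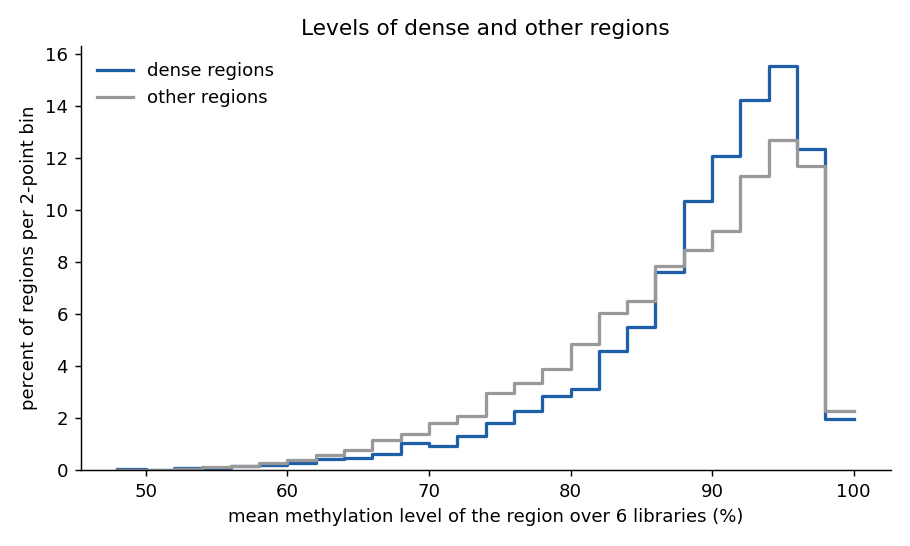
Percent of regions per 2-point bin (vertical axis) by mean methylation level over the 6 libraries (%, horizontal axis), for 6773 dense and 24301 other regions. Both curves peak above 90%. From 60% to 80% the dense curve lies lower, and under 60% the curves nearly coincide (0.591% of dense and 0.617% of other regions).

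Promoter windows rarely held dense table positions. Of 18190 RefSeq promoter windows on the 13 chromosomes covered (1, 2, 10 to 19 and part of 3), 786 (4.32%) held any table position and 153 (0.841%) a dense one. Among 4970 windows with 20 or more CpGs, 97.3% held no table position and 37 (0.744%) a dense one. A window without table positions may have been under 40% in every library or without a call, and the table does not tell these apart. The letters CCGG, which read the same on both strands and are searched here as a description, occurred in 53.4% of all windows and in 99.3% of those with dense positions. The median number of CpGs was 7 in all windows and 13 in those with dense positions.

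The imprinted promoters printed above were at intermediate levels at the positions valued in all 6 libraries. Mcts2, a retrogene inside H13, had 18 dense positions valued in all 6 libraries, whose means lay between 48% and 57%. Its window was at 60.6%, 53.1% and 45.1% in the controls and at 50.8%, 55.3% and 55.9% with DM-aKG. Control replicates 1 and 3 enclosed all DM-aKG values, so the groups overlapped. Igf2r, the receptor that takes up insulin-like growth factor 2, had 23 such positions with means from 48.8% to 59%. It was at 54.6%, 57.3% and 47.8% in the controls and at 56.8%, 56.7% and 49.3% with DM-aKG, again overlapping. Of its other dense positions, 5 after the gene start had no control value and were at 50%, 67% and 100% in DM-aKG replicates 1 to 3.

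The 3 germline promoters printed above were higher. Boll, an RNA-binding protein gene of meiosis, had 66 dense positions valued in all 6 libraries, ranging from 65.2% to 100%, and window means of 81.4%, 83.9% and 83.9% in the controls and 85.2%, 85.0% and 83.6% with DM-aKG. Ddx4, a germ cell RNA helicase, had 66 with a median of 96.8%, and window means of 94.4%, 95.8% and 95.9% against 95.9%, 96.7% and 96.4%. Dazl, an RNA-binding protein gene of the germline, had 14, all at 96.0% or more, with window means of 98.6%, 97.6% and 98.9% against 99.7%, 96.5% and 97.4%. In all 3 the groups overlapped, and Ddx4 and Dazl were near full methylation in every library.

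**Figure D4:**
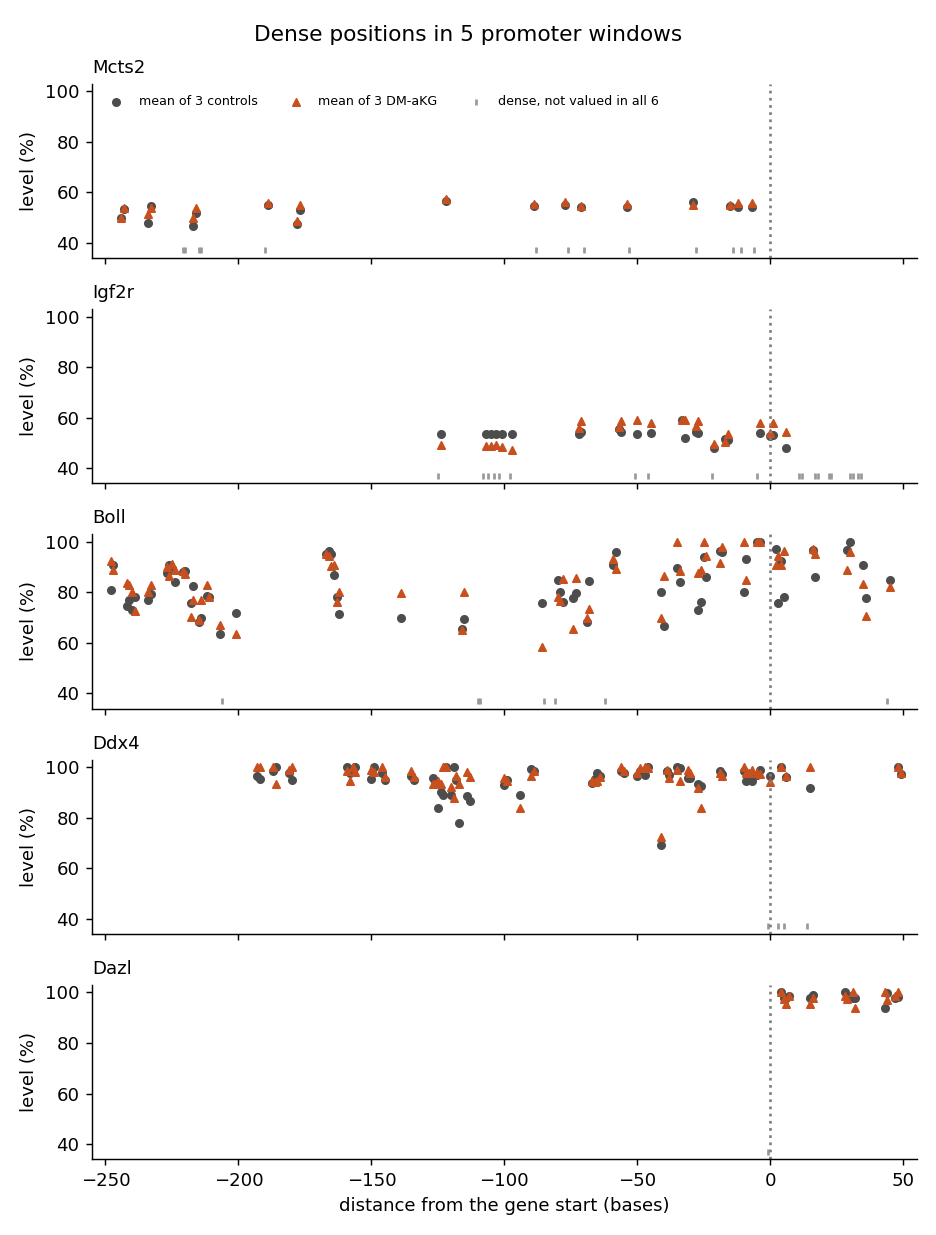
Methylation level (%, vertical axis from 34) of each dense position by its distance from the gene start in bases (horizontal axis) in 5 promoter windows; circles are means of 3 controls, triangles of 3 DM-aKG libraries, and grey ticks are dense positions without 6 values. Mcts2 and Igf2r stay at intermediate levels, Boll spreads widely up to 100%, and Ddx4 and Dazl lie mostly above 95%.

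Genes of the imprinted list accounted for many of the lowest regions. Of 22 imprinted genes on the chromosomes covered, 19 had a dense region within 1000 bases. Their 30 tested regions had a median of 77.1%, with 12 (40%) under 70%, against 3.48% of all dense regions. Of the 40 dense regions under 60%, 10 (25%) lay near an imprinted-list gene, as did 0.443% of all 6773. Besides H13 and Mcts2 (52.8%) and Igf2r and its antisense lncRNA Airn (53.8%), these included Gnas at 174328355 on chromosome 2 (53.6%), which encodes a G protein subunit, and Plagl1, a zinc finger gene (55.4%). Commd1 and Zrsr1, which overlap, had regions at 49.9% (6 of 70 dense positions with 6 values) and 54.2% (12 of 23). The Gnas region rested on 16 of 56. Positions under 40% in any library do not enter these means. Grb10, a growth factor receptor adaptor gene, was at 58.8% over 63 positions. Other regions of the same genes were high, such as Igf2r at 12689024 on chromosome 17 (96.0%) and Trappc9 at 73057992 on chromosome 15 (97.4%). Of the 4 lowest regions with at least 10 valued positions, 3 were those of H13, Gnas and Igf2r. The other lay outside gene spans on chromosome 18 at 80169754, with a control level of 56.2% ± 1.51 (SD, n = 3) and a DM-aKG level of 51.5% ± 0.777.

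The germline genes of the list had highly methylated dense regions. All 12 of the list's genes on the chromosomes covered had one, whereas 31.4% of 12020 protein-coding genes had a dense region of any level. Their 16 tested regions had a median of 93.1%, and the lowest, near the synaptonemal complex gene Sycp3 (84.1%) and the piRNA pathway gene Tdrd1 (84.1%), were still above 80%. Mael, a piRNA factor, was at 88.4% over 62 positions. Slc25a31, a germ cell ADP/ATP carrier, was at 95.9% over 64, and the Rpl10l region reaching into its promoter at 95.02% over 17. The germline and imprinted lists were chosen with earlier results of these data known. Their contrast, and that with all protein-coding genes, is thus a description. It does not extend to germline genes outside the list, where levels differed. The Rbm46 region was at 66.0% over 46 positions, and the Hormad2 and Sox30 promoter windows were at 72.3% and 74.7%. The Boll window was at 83.8% and the Hsf5 region at 97.0%.

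With DM-aKG the mean level of dense positions was higher by 0.901 points. The controls had a mean of 89.1% ± 0.6004 (SD, n = 3) and the DM-aKG libraries one of 90% ± 0.193, and no DM-aKG library overlapped a control. An exact permutation test, two-sided, gave p = 0.1, which is the lowest value possible with 3 libraries a group. The difference was 0.555 points without control replicate 1 and 0.501 when the libraries were averaged over all their own valued dense positions. Counting zeros as levels gave 0.631 points with overlapping groups (exact permutation p = 0.9). Other positions were higher by 1.13 points. The distance between dense and other positions was 2.38 ± 0.197 points in controls (SD, n = 3) and 2.16 ± 0.144 in DM-aKG libraries, a change of -0.224 that did not pass (exact two-sided permutation p = 0.3), and the 2 groups overlapped.

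The direction was the same in every class of dense position. It was 0.629 points in promoter windows, 0.662 near gene ends, 0.875 inside genes and 1.31 outside genes, and between 0.644 and 0.960 in the 4 bands of density, each with groups that did not overlap and an exact permutation p of 0.1 (adjusted 0.1 over 19 classes). When the libraries were averaged over all their own valued positions, the difference in promoter windows was 0.520 points (exact permutation p = 0.4), that near gene ends 0.193 (p = 0.6), that at 20 to 29 other rows 0.368 (p = 0.2) and that at 30 or more 0.0435 (p = 1). When zeros counted as levels, the differences of the 4 contexts and 4 bands ranged from 0.450 to 1.51 points, with exact permutation p-values from 0.3 to 1. Dense positions with a mean under 80% went from 67.8% ± 1.12 (SD, n = 3) to 69.8% ± 0.944, and those at 80% or more from 93.4% ± 0.494 to 94.1% ± 0.0472. The difference was thus 2.07 points in the 15392 partly methylated positions and 0.664 in the 75490 others, and the gap between the classes narrowed by 1.40 points (exact permutation p = 0.1, adjusted 0.46 over 23 library measures). These 2 classes were cut on the same levels that are compared. Positions that were not dense moved likewise, by 2.50 points where their mean was under 80%. In promoter windows, near gene ends, inside genes and outside genes they were higher by 0.715, 0.911, 1.08 and 1.43 points. Without control replicate 1 the differences of dense positions were 0.533 inside genes, 0.696 outside genes, 1.42 at partly methylated positions and 0.379 at those of 80% or more.

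Whether a dense position had a value differed little between the groups. Dense positions were valued at 90.4%, 94.0% and 93.5% in the controls and 92.4%, 93.3% and 92.9% with DM-aKG, all within the spread of the controls. The margin of dense over other positions in this share was 9.34, 8.70 and 6.90 points in the controls and 10.1, 10.3 and 9.75 with DM-aKG. These did not overlap (exact permutation p = 0.1, adjusted 0.46).

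No dense region passed the test of the difference. By limma on untransformed levels, fitted over all 31074 regions with Benjamini-Hochberg adjustment, 0 of the 6773 dense regions had an adjusted p under 0.05, as did 0.0% of all regions. An unadjusted p under 0.05 was found for 253 dense regions (3.74%), 192 higher and 61 lower with DM-aKG. Of all regions 5.25% had one, 3.97% higher and 1.28% lower. All 3 DM-aKG libraries lay above all 3 controls in 606 dense regions (8.95%) and below them in 200 (2.95%), close to the 8.24% and 2.66% of all regions. Differences were positive in 65.2% of dense regions, with a median of 0.704 points against 0.815 in the other regions, and 90.2% of them were under 5 points in size. At single positions, limma called 0 of 90882 dense positions and 0.0% of all 272327, with 4082 dense positions (4.49%, as over all) at an unadjusted p under 0.05. On log2 odds of the level, limma also called 0 dense regions (268 with an unadjusted p under 0.05) and 0 dense positions (3939).

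The regions were measured more finely than single positions. The 95% interval of the difference reached a median of 4.73 points to either side in dense regions, against 6.02 in other regions and 9.93 at single dense positions. In simulated data, 166 of 200 regions lowered by 20 points were called, together with 12 unchanged ones, and 0 of 200 lowered by 10 points. At the simulated spread, a lowering of 10 points was thus not detected with 3 libraries a group. Real regions differ in spread, and rises were not simulated.

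**Figure D5:**
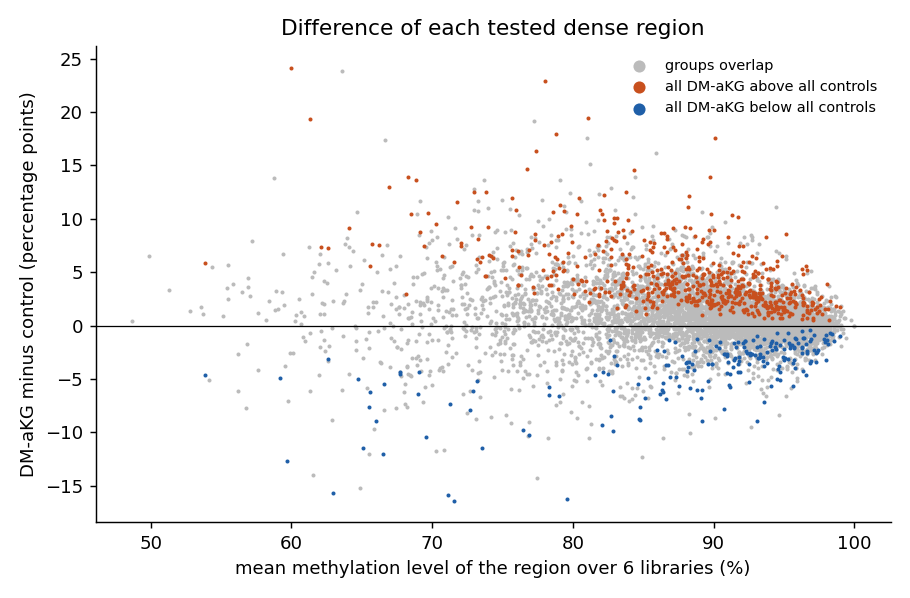
DM-aKG minus control difference in percentage points (vertical axis) of each of 6773 tested dense regions by its mean level over the 6 libraries (%, horizontal axis). Colours mark the 606 regions with all DM-aKG libraries above all controls and the 200 with all below; most points lie within 5 points of 0, and the spread is wider at lower levels.

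The 16 regions described next have groups that do not overlap and the smallest p in each direction, so their differences are large by choice. The smallest adjusted p among dense regions was at Tnxb, which encodes the matrix glycoprotein tenascin XB. Its region inside the gene, at 34672668 to 34672754 on chromosome 17, was at 66.8%, 69.4% and 63.4% in the controls and at 88.4%, 88.8% and 91.2% with DM-aKG. The lowest DM-aKG library lay far above the highest control. The difference was 22.9 points (95% half-width 6.63) over 5 of its 11 dense positions (limma adjusted p = 0.261), and 12.97 points with each 0 counted as a level.

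Other regions with higher levels with DM-aKG had adjusted limma p-values of 0.851. A region at 3125187 on chromosome 11 beside the transcribed pseudogene Pisd-ps1 was at 67.5%, 69.2% and 65.9% in the controls and at 80%, 81.4% and 78.8% with DM-aKG. One outside genes on chromosome 16 at 23442544 was at 73.8%, 74.1% and 75.5% against 84.9%, 91.0% and 83.4%. Both were partly methylated in the controls and moved by 12.5 and 11.97 points. Acin1, a chromatin condensation factor of apoptosis, went from 90.9% ± 3.38 (SD, n = 3) to 99.5% ± 0.924. Its region reaches a promoter window and is shared with the lncRNA 4930579G18Rik. Klhl3, a ubiquitin ligase adaptor, had 85.2% ± 2.69 and 94.1% ± 0.231, and Pdlim7, a PDZ and LIM domain protein whose region is shared with Mir6945, had 89.6% ± 3.70 and 97.9% ± 0.585. Mex3d, an RNA-binding protein, had 94.0% ± 0.902 and 99.2% ± 1.39, and a region at 19651082 on chromosome 16 had 85.8% ± 0.873 and 93.4% ± 1.13. In Acin1 and Pdlim7 the gap between the groups was smaller than the spread among the controls. These higher regions rest on 5 to 10 positions each.

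Lower levels with DM-aKG came with the same adjusted p, 0.851 by limma. The histone H3 methyltransferase gene Kmt2d was at 97.6%, 93.1% and 90.1% in the controls and at 82.1%, 86.1% and 85.7% with DM-aKG. D430041D05Rik was at 84.3%, 90.3% and 85.6% against 79.0%, 77.3% and 75.9%. A region outside genes on chromosome 3 at 51505601 was at 85.8%, 78.0% and 82.3% against 69.6%, 75.8% and 70%. In these 3, and in Trub1 and Pigt, the gap between the groups was smaller than the spread among the controls. Trub1, a pseudouridine synthase, had 92.5% ± 3.02 (SD, n = 3) and 85.7% ± 0.859, and Pigt, a subunit of the GPI transamidase, 94.7% ± 3.26 and 86.9% ± 3.01. Bend3, a DNA-binding repressor, had 98.4% ± 0.585 and 92.8% ± 3.09, the RNA-binding protein gene Stau2 98.6% ± 0.585 and 95.1% ± 1.18, and the amino acid transporter gene Slc16a10 99% ± 0.167 and 95.6% ± 1.55. With each 0 counted as a level, the differences of Kmt2d and Pigt were 11.4 and 17.7 points, in the opposite direction.

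Regions with many positions differed by 2.93 points or less. The 8 with the most dense positions valued in all 6 libraries held 101 to 155 each. Grin3b, an NMDA receptor subunit, shares its region with Tmem259 and was at 96.5% ± 0.301 (SD, n = 3) and 96.2% ± 0.365. Hcn2, an ion channel of pacemaking cells, shares one with the mitochondrial RNA polymerase gene Polrmt and was at 93.8% ± 1.19 and 93.1% ± 0.593. Amn, the vitamin B12 receptor partner amnionless, was at 95.8% ± 0.781 and 95.8% ± 0.434. Bcl11b, a zinc finger repressor, was at 96.5% ± 0.828 and 96.9% ± 0.323, and Dact1, a Dishevelled-binding Wnt regulator, at 92.1% ± 1.09 and 93.0% ± 0.358. Mtmr4 and the germline gene Hsf5 share a region at 97.1% ± 0.421 and 96.8% ± 0.380, and Gm20517 and Usp49 one at 90.6% ± 0.659 and 91.4% ± 1.28. The 2.93 points (95% half-width 3.83, limma adjusted p = 0.851) belonged to Npcd and Cbx6, the latter a polycomb subunit, whose shared region was at 88.7%, 92.5% and 93.2% in the controls and at 94.4%, 94.8% and 93.9% with DM-aKG.

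Larger clusters existed with fewer complete values. The run with the most dense positions, 318 over 2409 bases, lay beside the ribosomal RNA pseudogene Rn18s-rs5 on chromosome 17, where copies of one sequence cannot be told apart. Only 72 of its positions had 6 values, since control replicate 1 was valued at 33.7% of them and the others at 80.2% to 89.9%. Its level was 52.3%, 62.2% and 62.8% in the controls and 66.2%, 62.8% and 65.6% with DM-aKG, and control replicate 1 was the lowest. Fignl2, with 247 dense positions of which 80 had 6 values, was at 63.8%, 73.2% and 73.7% against 70.6%, 73.2% and 84.1%, with overlapping groups.

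None of the gene lists held a region past the adjusted threshold by limma. Wnt antagonists had 5 regions higher and 3 lower (median difference 0.564 points), stem cell and Wnt target genes 5 and 5 (0.202), absorptive enterocyte genes 1 and 2 (-0.140) and secretory lineage genes 3 and 0 (1.24). The DNA methylation machinery had 9 and 4 (0.333), glutamine and α-ketoglutarate metabolism 7 and 4 (0.608), imprinted genes 19 and 11 (0.772) and germline genes 14 and 2 (1.02). Developmental genes bound by polycomb had 1 and 1, and only 2 of the 34 on the chromosomes covered had a tested dense region. Markers of other cells had 5 and 1 for fibroblasts (1.62), 1 and 2 for immune cells (-3.17) and 5 and 0 for endothelium (2.59). Of all 6773 dense regions, 4414 had a positive and 2322 a negative difference (median 0.704). A methylation level at a marker gene does not measure the share of a cell type.

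In the Wnt and stem lists the smallest p belonged to Tcf7, a Wnt pathway transcription factor, and Notum, which inactivates Wnt ligands. Tcf7 was at 62.5%, 66.2% and 61.0% in the controls and at 76.5%, 69.5% and 75.2% with DM-aKG over 4 of 12 dense positions, and with each 0 counted as a level its difference turned from 10.5 to -6.25 points. Notum was at 83.3%, 90.4% and 87.9% against 89.6%, 89.6% and 91.2%, with overlapping groups. Among differentiation genes, Agr2, a goblet cell disulfide isomerase, was at 90.4%, 90.6% and 89.7% in the controls and 92.8%, 93.9% and 93.5% with DM-aKG over 22 positions (95% half-width of the difference 3.40 points). Vil1, the brush border protein villin, was at 77.0% ± 3.00 (SD, n = 3) and 72.9% ± 2.34.

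Among genes of methylation and α-ketoglutarate metabolism, Uhrf1, which recruits the maintenance methyltransferase, was at 84.9% ± 5.67 (SD, n = 3) and 91.2% ± 1.97. Psat1, a serine synthesis transaminase that yields α-ketoglutarate, was at 93.5%, 93.6% and 93.4% in the controls and 91.5%, 91.9% and 89.9% with DM-aKG. Impact, an imprinted translation regulator, was at 96.2%, 94.5% and 92.7% against 97.2%, 98.0% and 98.3%, and Lhx1, a developmental homeobox gene, at 62.3%, 67.3% and 66.9% against 74.9%, 77.2% and 73.1%. In Uhrf1, Psat1, Impact and Lhx1 the groups did not overlap, though in Uhrf1 the highest control was at 89.0% and the lowest DM-aKG library at 89.6%. Each was the region of smallest p in its list, which favours such separation. Of all dense regions, 8.95% had every DM-aKG library above every control and 2.95% below. Tdrd1 (87.8% ± 5.02 and 92.8% ± 3.50), the endothelial gene Eng (83.6% ± 2.39 and 87.9% ± 2.77), the myeloid factor gene Spi1 (96.7% ± 5.77 and 90.9% ± 2.91) and Pdgfrb, which shares its region with Gm52351 (79.1% ± 9.99 and 85.8% ± 4.79), had overlapping groups. Every limma adjusted p in the gene lists was 0.851 or more.

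Some dense positions were valued in one group only. Of the 21493 without 6 values, 249 were valued in all 3 controls and in no DM-aKG library, and 228 the other way round. These are 0.222% and 0.203% of all dense positions, against 0.556% and 0.358% of the others. Igf2r and Airn held the most, with 18 positions valued in all DM-aKG libraries and in no control, where DM-aKG replicate 1 was valued at 100% of the region's 74 dense positions and control replicate 3 at 37.8%. The 5 of these that lie in the promoter window had the same value within each DM-aKG library (50%, 67% and 100%). Without coverage, such positions cannot be counted as separate observations. Beside 1700029P11Rik on chromosome 15, at 81980522 to 81980745, 9 of 28 dense positions were valued only with DM-aKG, at a mean of 99%. Sptb, a spectrin gene, had 7 such positions. The neuregulin gene Nrg3 and the zinc finger gene Zbtb20 had 6 each that were valued only in controls, at means of 100% and 96.8%. A position absent from one group may have been under 40% or without a call there, and the table does not tell these apart.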

How the data were processed

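Reduced representation bisulfite sequencing covered 6 libraries, 3 control and 3 DM-aKG. The deposited table gives a percent of methylation per position and library, rounded by the authors, without coverage, so depth and counting intervals cannot be given. Per the submitters' processing notes, the build was mm10 and the tools CASAVA 1.8 and Novoalign 3.08.02, and the methylation caller is not given in the sources used here. All 6 value columns match sample titles.

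Dense positions, their lists and the tests were chosen with earlier results of these data known. Regions are runs of rows at most 100 bases apart, valued as the mean of their dense positions with 6 values (at least 3), or of all such positions where a run holds none that is dense. Genes and promoter windows come from RefSeq tables of GRCm38.p6, the assembly of mm10, and a region takes every gene within 1000 bases.

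Library values were compared with exact permutation tests over 20 assignments, and within-library differences by sign flips. Regions and positions were tested with limma 3.58.1 (R 4.3.3) on untransformed percent levels with a mean-variance trend and Benjamini-Hochberg adjustment over all 31074 regions or 272327 positions, threshold 0.05. The test was tried on simulated data. Regions named are the 8 with the most valued positions, the 8 per direction of smallest p whose groups do not overlap and with at least 5 valued positions, the 4 lowest in level with at least 10, and the smallest p per gene list, for Wnt antagonists, stem and Wnt target, enterocyte, secretory, DNA methylation, glutamine and α-ketoglutarate, imprinted, germline, polycomb, fibroblast, immune and endothelial genes. Others are named as examples after their values were seen. Alternatives covered left-out libraries, density rules, zeros, run lengths, scale and a replicate block.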

Additional observations from a re-analysis of the deposited data

How the results depend on the processing

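The 0.901-point difference between DM-aKG and control dense positions kept its sign under every alternative run, from 0.555 to 1.09 points with 1 library left out, and was 0.631 (exact permutation p = 0.9) with each 0 counted as a level. The within-library margin of dense over other positions was 2.20 to 2.32 points with 1 library left out, where the smallest permutation p is 0.0625. The change of that margin with DM-aKG, -0.224 points, was 1.63 with each 0 counted as a level and 0.133 with each library averaged over every valued position, and the cause was not tested. The difference in valued dense positions, 0.190 points, ranged from -0.935 (without control replicate 1) to 0.867, and was -0.0381 without DM-aKG replicate 2. That of the SD of dense levels ranged from -1.05 to -0.229 points. With each 0 counted as a level, limma called 10 dense regions, 2 higher and 8 lower, and 71 of 42755 regions in all. No other alternative called a dense region or position. Of 580 alternative values for the 40 regions named by rule, 22 changed sign and 0 passed. With library means made equal these were Dact1 (-0.152), Gm20517 (-0.249), Bcl11b (-0.605) and Igf2r (-0.00710). With each 0 as a level they were Amn (3.56), Kmt2d (11.4), Pigt (17.7), Gnas (-5.47), H13 (-0.761), Eng (-2.28) and Tcf7 (-6.25), and with 50-base runs Amn (0.227). With 1 library left out, Bcl11b ranged from -0.0182 to 0.777, Hcn2 from -1.06 to 0.0489, Amn from -0.470 to 0.278, Gnas from -1.23 to 4.68, H13 from -2.43 to 5.47 and Igf2r from -1.68 to 3.51. Deviations of libraries with the same replicate number correlated at 0.0682, -0.0339 and 0.0467. Those of control and DM-aKG libraries with different numbers ranged from -0.0912 to 0.0806. These values give no sign of pairing but cannot exclude it, and the labels do not state it. With a replicate block the difference of dense positions was 0.901 (exact permutation p = 0.25), the change of the margin -0.224 (p = 0.25), and limma called 0 dense regions (247 with an unadjusted p under 0.05) and 0 dense positions (3369). Coverage is unknown, so its effect on any value cannot be given.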
